A study of Homo sapiens with 4 samples.

Results

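Mediator is the large protein assembly that carries signals from transcription factors bound at enhancers to RNA polymerase II at promoters. Its core has a head that contacts the polymerase, a middle, a tail that meets most activators, and the MED14 subunit as a backbone. A separable kinase module of CDK8 or CDK19, cyclin C, MED12 or MED12L, and MED13 or MED13L binds the core reversibly and can block the polymerase or modify transcription factors. In T-cell acute lymphoblastic leukaemia (T-ALL), enhancers driven by the transcription factor TAL1 are heavily loaded with Mediator, and background knowledge of the long non-coding RNA ARIEL ties it to Mediator at the enhancer of ARID5B.

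The genes described here are the 33 rows of the deposited table named MED with a number, or named CDK8, CDK19 or CCNC, out of 22361 rows in all. They comprise 9 head, 9 middle and 7 tail genes, the scaffold gene MED14 and 7 kinase module genes. No other name in the table began with MED and a digit, and all 33 genes passed the filter on low values.

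RNA came from Jurkat cells, an established human T-ALL line, in 2 groups of 2 libraries. The ARIEL knockdown cells carried an shRNA against ARIEL and the control cells an shRNA against GFP, a gene that the line lacks. Cells of both groups were infected with lentivirus, selected with puromycin at 0.7 µg/ml for 36 h or more, and collected 72 h after infection. ERCC spike-in RNA was added in proportion to the cell number, but whether it entered the deposited values is not stated. Replicates are separate libraries, but nothing states that they were separate cultures, so every p-value measures only the spread between these samples. Unless stated otherwise, limma takes that spread, and each SE, from genes of like level and not from the gene alone.

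The values are regularised log (rlog) expression, a log2 scale on which values are drawn towards the mean of their gene. Differences on this scale are smaller than the authors' log2 fold changes, also for well expressed genes. For TAL1, at a mean of 15.21 in control libraries, the rlog difference was -0.23 and the authors' log2 fold change -0.41. The authors' own fold changes are therefore given beside the rlog differences for some genes. The table holds no counts, and the depth of the libraries is unknown. All 7 T-lineage marker genes present (CD2, CD3D, CD3E, CD3G, CD7, CD28 and LCK) lay between 12.15 and 16.74 in ARIEL knockdown libraries and between 12.29 and 16.77 in control libraries. Within that range CD3G was at 14.20 and 14.16 in knockdown and 14.50 and 14.47 in control libraries, CD28 at 13.91 and 13.90 in knockdown and 14.19 and 14.14 in control libraries, and CD7 at 12.73 and 12.72 in knockdown and 12.46 and 12.52 in control libraries. The part of these shifts in the Mediator results was not tested. The B-cell gene MS4A1, the myeloid gene CSF1R and the epithelial gene EPCAM were listed at 0 in every library, and the stromal gene COL1A1 was at 7.20 and 7.21 in knockdown and 7.36 and 7.41 in control libraries. The B-lineage gene CD79A was at 11.23 and 11.25 in knockdown and 10.91 and 10.99 in control libraries. In bulk RNA of this kind, fewer cells of a type and less RNA per cell cannot be told apart.

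The depleted RNA itself was lower. XLOC_005968, the unannotated chromosome 10 locus that background knowledge of the study equates with ARIEL, had rlog values of 10.58 and 10.55 in ARIEL knockdown libraries and 12.02 and 11.91 in control libraries. ARID5B, the enhancer's target gene, was at 13.57 and 13.55 in knockdown libraries, against 14.04 and 13.99 in control libraries. TAL1 fell by 0.23 on the rlog scale, and MYC rose by 0.14 (limma, called for both).

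As a group, Mediator genes changed about as often as any other gene, and in both directions. By limma's moderated test (Benjamini-Hochberg adjusted p under 0.05 over 14601 genes), 15 of the 33 (45.5%) were called, against 44.4% of all genes tested. Of these, 6 rose (CDK8, MED27, MED12, MED24, MED25 and MED6), where 22.1% of all genes rose. The other 9 fell (MED28, CDK19, MED9, MED4, MED14, MED21, MED7, MED23 and CCNC), where 22.4% of all genes fell. The median difference over the 33 genes was -0.01, against 0.00 over all genes, and the median size of a difference was 0.08 for the members and 0.07 for all genes. The count for Mediator as a whole therefore sits at the background. Which subunits moved is described below, and no test set them apart from other genes.

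A total of 13 members passed an adjusted p of 0.05 in the authors' deposited table, which 39.4% of its genes with an adjusted p did. These 13 are all among the 15 called by limma and have the same direction. MED6 (adjusted p = 0.0549 in the authors' deposited table) and CCNC (0.0659) are the exceptions. Groups did not overlap in 25 of 33 members (75.8%), against 70.7% of all tested genes, with 11 higher and 14 lower in knockdown libraries.

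**Figure D1:**
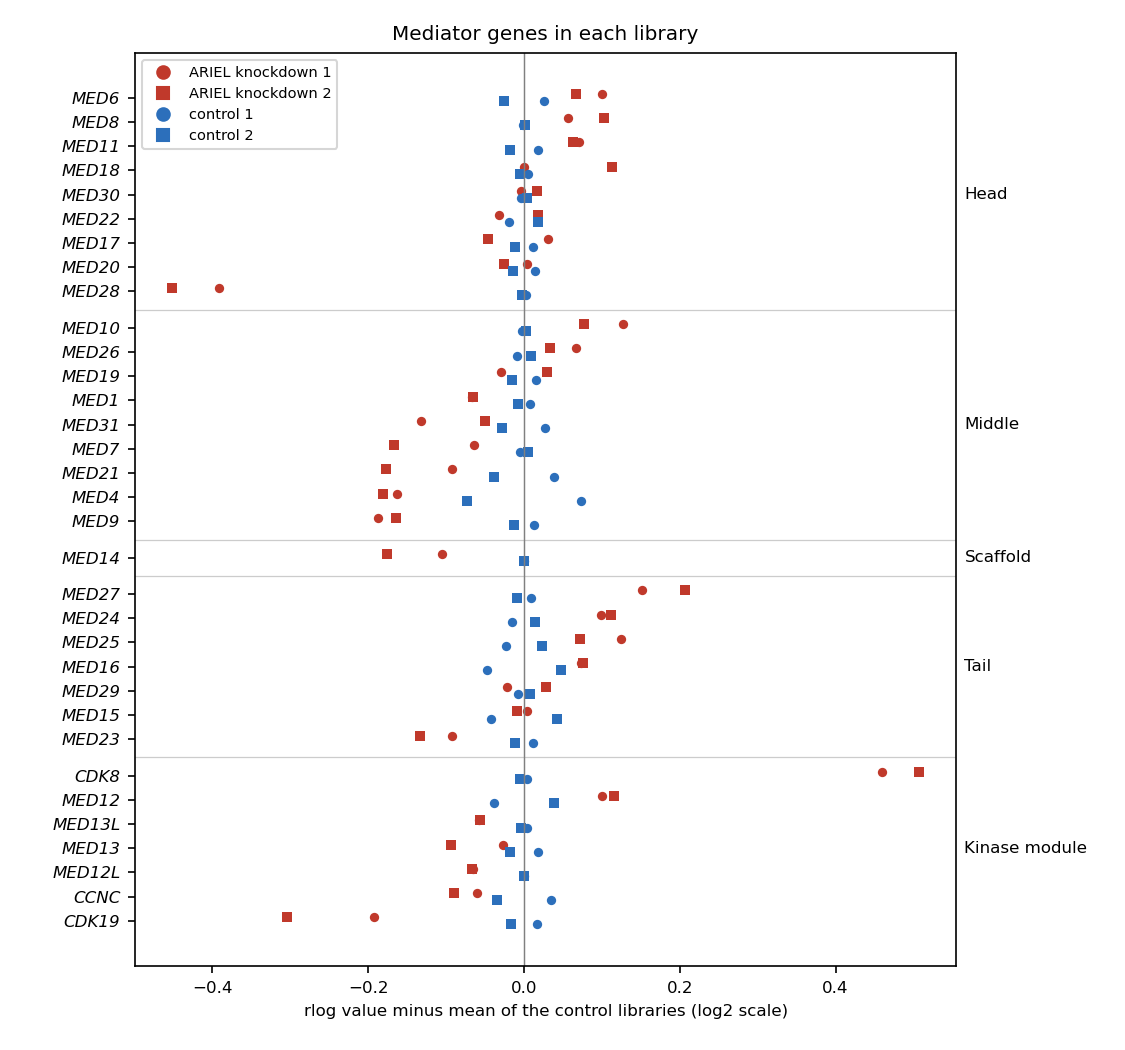
Each row is a Mediator gene, and each point is its rlog value in 1 library minus the mean of the control libraries (log2 scale); red marks ARIEL knockdown and blue control, with circles for replicate 1 and squares for replicate 2. CDK8 stands apart on the right, and MED28 and CDK19 on the left, while most other genes stay within 0.2 of the control mean.

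The 3 genes that moved farthest were CDK8, MED28 and CDK19. CDK8 encodes the catalytic subunit of the kinase module, and CDK19 encodes the paralogue that takes its place. MED28 is a head subunit. Their 3′ untranslated regions (UTRs) are shown in part because earlier work on these same data picked out 7-base words whose carriers differed between the groups. That work labelled GATGACA and AGATGAC as words of genes that fell, and TGTTGTC and GTTGTCA as words of genes that rose. The second label is not borne out over all carriers here, of which 24.2% rose and 25.8% fell. Since the words were picked on these data, their presence is a description and supports nothing about these genes.

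MED28 and CDK19 each carry both words of fallen genes, at separate places. The 29 bases around each word follow as RNA-sense sequence from GENCODE 29 transcripts (GRCh38), with the word in capitals.
MED28, chr4:17624044-17624072, plus strand: actgtgaatatGATGACAcagattctttt
MED28, chr4:17632000-17632028, plus strand: cattttcctatAGATGACttttaataaca
CDK19, chr6:110610943-110610971, minus strand: gaatggaaaggGATGACAtttacctatgt
CDK19, chr6:110610184-110610212, minus strand: tatggttatagAGATGACtgtagcttttc

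CDK8 carries the other pair as overlapping words at a single place, and so do MED7, which fell, and MED22, which was not called. MED29 carries both words of fallen genes in overlap at the very end of its UTR, and its RNA did not pass the test. In these sites the first word of the pair is in capitals, and the second begins 1 base later. They show members that went with and against the label of their words.
CDK8, chr13:26404778-26404806, plus strand: gtaattaaataTGTTGTCattgatataaa
MED7, chr5:157137929-157137957, minus strand: ctttgaagataTGTTGTCaagatgtggca
MED29, chr19:39400618-39400637, plus strand: tattattaaatAGATGACaa

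The share of members with a word lay near that of all genes for both kinds of word, and the difference was not tested. A word of fallen genes was found in 5 of 33 members (15.2%), namely MED28, CDK19, MED17, MED18 and MED29, against 16.4% of 12516 tested genes with a searched 3′ UTR. Of those 5, 2 fell and 3 were not called, and over all carriers 41.0% fell. A word of risen genes was found in 6 members (18.2%, against 17.9%): CDK8 rose, MED7 and MED28 fell, and MED13, MED16 and MED22 were not called. Over all carriers of those words 24.2% rose and 25.8% fell, against 22.1% and 22.4% of all tested genes. The other 7 members called lower carry no word of fallen genes.

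The kinase module held the widest spread of any module. Of its 7 genes 2 rose and 2 fell (57.1% called, against 44.4% of all genes), with differences between -0.25 and 0.48 on the rlog scale. CDK8 had rlog values of 11.92 and 11.96 in ARIEL knockdown libraries and 11.46 and 11.45 in control libraries. Both knockdown libraries were above both controls, by at least 0.46. The difference was 0.48 ± 0.04 (SE, n = 2 per group; limma, adjusted p = 3.34e-34), and CDK8 was 1.87-fold higher in the authors' deposited table (log2 fold change 0.91 ± 0.07, SE).

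CDK19 moved the other way. It had rlog values of 10.87 and 10.76 in knockdown libraries and 11.08 and 11.04 in control libraries, again without overlap. The difference was -0.25 ± 0.04 (SE; limma, adjusted p = 4.75e-08), and the authors' deposited table has it 1.39-fold lower. The knockdown replicates of CDK19 differed by more than its controls did (SD 0.08 and 0.02).

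The balance between the kinases thus shifted within each library. The log2 ratio of CDK8 to CDK19 was 1.05 and 1.21 in knockdown libraries, against 0.38 and 0.41 in control libraries. That is a change of 0.73 on the rlog scale. The authors' log2 fold changes, 0.91 for CDK8 and -0.47 for CDK19, are both larger in size than the rlog differences. An exact two-sided permutation test over the 4 libraries gave p = 0.333, the smallest that 2 against 2 allows. The ratio compares each gene with itself across libraries, so gene length does not enter the change.

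CCNC, which encodes cyclin C, the activating partner of either kinase, was at 13.45 and 13.42 in knockdown libraries and 13.55 and 13.48 in control libraries. The gap between the groups was 0.03, less than the distance between the control libraries. Its difference of -0.07 ± 0.03 (SE) passed narrowly (limma, adjusted p = 0.0494). The call was lost in 8 of 10 alternatives that kept all 4 libraries, and also with each gene's own variance.

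MED12, which binds cyclin C and switches the kinase on, rose. It was at 13.99 and 14.01 in knockdown libraries and 13.85 and 13.93 in control libraries, a difference of 0.11 ± 0.03 (SE; limma, adjusted p = 0.00268). The gap of 0.06 between the groups was smaller than the distance between the control libraries, and the call was lost without control replicate 1 or knockdown replicate 2. MED12L, its less studied paralogue, was at 13.93 in both knockdown libraries and 13.99 in both control libraries. That difference, -0.07 ± 0.03 (SE), was not called (adjusted p = 0.0808, 95% interval -0.13 to -0.00). The log2 ratio of MED12 to MED12L was 0.06 and 0.08 in knockdown libraries, against -0.14 and -0.06 in control libraries (change 0.17; exact permutation p = 0.333). These ratios are not corrected for transcript length, so their sign does not rank the genes.

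MED13 and MED13L encode the subunits that hook the kinase module onto the core. MED13 was at 14.05 and 13.98 in knockdown libraries and 14.09 and 14.06 in control libraries (difference -0.06, 95% interval -0.12 to 0.00; limma, adjusted p = 0.115). MED13L was at 13.99 in both knockdown libraries, against 14.05 in both controls (difference -0.06, 95% interval -0.12 to 0.01; adjusted p = 0.133). Neither was called, and their ratio to each other changed by -0.00 (exact permutation p = 1).

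**Figure D2:**
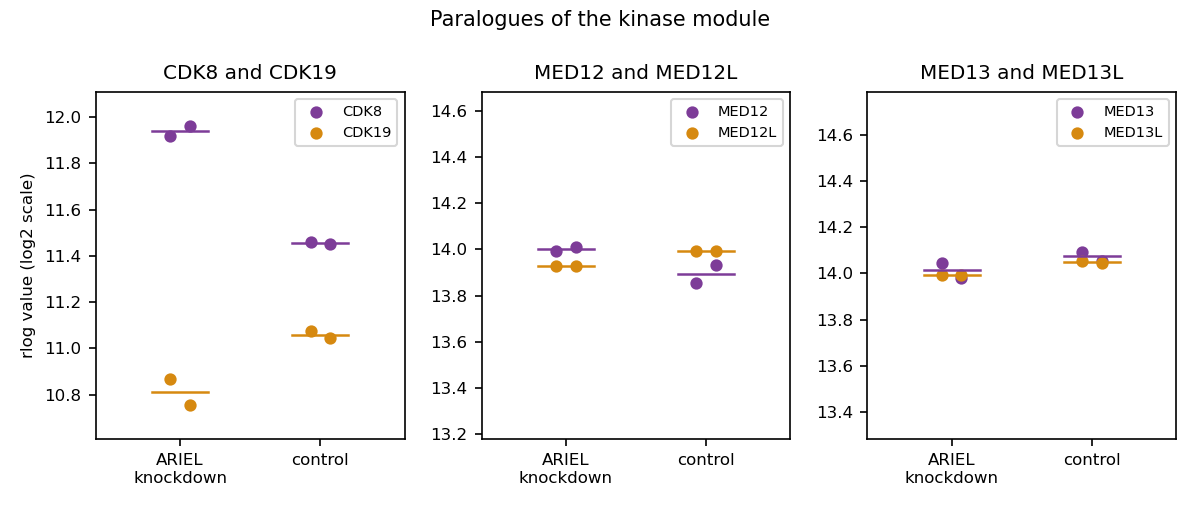
The rlog values (log2 scale) of the paralogue pairs of the kinase module are plotted in each library, ARIEL knockdown beside control, with a line at each group mean and a vertical span that is equal in all panels. CDK8 and CDK19 move apart in knockdown libraries. MED12 and MED12L change order on these values, which are not divided by transcript length. Divided by length, MED12 is above MED12L in both groups (11.20 against 10.50 in knockdown, 11.09 against 10.57 in control). MED13 and MED13L lie close together, with a log2 ratio between -0.01 and 0.05 in every library.

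In the head 1 gene rose and 1 fell of 9 (22.2% called, against 44.4% of all genes). MED28 fell. MED28 was at 13.73 and 13.67 in knockdown libraries and 14.13 and 14.12 in control libraries. The groups were separated by 0.39. The difference was -0.42 ± 0.03 (SE; limma, adjusted p = 2.69e-37), and MED28 was 1.69-fold lower in the authors' deposited table (log2 fold change -0.76 ± 0.06, SE). GENCODE 29 lists 8 pseudogenes named after MED28, 8 after MED15 and 1 each after CDK8, MED6, MED13 and MED14. None is in the table, and how reads that match them were counted is not stated. The gene FAM184B on the opposite strand shares 32.1% of the MED28 exon bases and stood at 4.75 to 4.79 in all libraries. The part of this overlap in the MED28 value was not tested.

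MED6, a conserved head subunit near the polymerase, was at 12.48 and 12.44 in knockdown libraries and 12.40 and 12.35 in control libraries. It was called by a small margin (0.08 ± 0.04, SE; limma, adjusted p = 0.0415). MED8, which anchors the movable jaw of the head, gave nearly the same difference of 0.08 and missed the threshold (adjusted p = 0.0578). MED11 (0.07) and MED18 (0.06) were not called either.

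The remaining 4 head genes barely differed. MED20, which pairs with MED18, MED17, the central organiser of the head, MED22, the partner of MED11, and MED30 had differences between -0.01 and 0.01. Their 95% intervals all lay between -0.08 and 0.08.

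In the middle module 4 of 9 genes were called (44.4%, the same as the 44.4% of all genes), and these 4, MED9, MED4, MED21 and MED7, were lower in the fit on deposited values. The median difference of the 9 genes was -0.09, against 0.00 over all genes, and 7 of the 9 differences were below 0, though that of MED19 was -0.00. MED9 was at 11.64 and 11.66 in knockdown libraries and 11.84 and 11.81 in control libraries. Replicates of MED9 lay close together in both groups. The difference was -0.18 ± 0.04 (SE; limma, adjusted p = 2.61e-05), 1.26-fold lower in the authors' deposited table.

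MED4, the partner of MED9 in the middle, was at 11.88 and 11.86 in knockdown libraries and 12.12 and 11.97 in control libraries. Its controls differed by 0.15, more than the gap of 0.09 between the groups. Its difference of -0.17 ± 0.04 (SE, from the spread shared by genes of its level; limma, adjusted p = 2.26e-05) lost its call without control replicate 1. It was 1.25-fold lower in the authors' deposited table (log2 fold change -0.32 ± 0.09, SE).

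MED21 and MED7 together form the hinge of the middle module. MED21 was at 12.36 and 12.27 in knockdown libraries and 12.49 and 12.41 in control libraries (difference -0.13 ± 0.04, SE; limma, adjusted p = 0.000626). MED7 was at 10.98 and 10.88 in knockdown libraries and 11.04 and 11.05 in control libraries (-0.11 ± 0.04, SE; adjusted p = 0.0171). For both genes the separation of the groups, 0.05 and 0.06, was smaller than the distance between the knockdown libraries. MED7 shares 1.72% of its exon bases with HAVCR2 on its own strand, which differed by -0.15, and the part of that gene in its value was not tested.

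MED1, the subunit that nuclear receptors bind, was at 13.75 in both knockdown libraries and 13.83 and 13.81 in control libraries. Its difference of -0.07 ± 0.03 (SE) was not called (limma, adjusted p = 0.0801), nor was that of MED31 (-0.09 ± 0.05). MED10 (0.10 ± 0.05; adjusted p = 0.0587) missed the threshold, but was called higher in 8 of 10 alternatives that kept all 4 libraries (not with each gene's own variance), so the single direction of the middle module's calls depends on the setting. MED26 (0.05 ± 0.04), the subunit that brings elongation factors to the polymerase, and MED19 (-0.00 ± 0.04) were not called. MED31 shares 58.3% of its exon bases with TXNDC17 on the opposite strand, which had rlog values of 12.87 to 12.91, against 10.09 to 10.25 for MED31. Libraries were strand-specific, but the strand setting of the counting is not given in the sources used here, so reads of MED31 may not be separated from those of TXNDC17.

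MED14, the backbone that holds head, middle and tail together, fell. It was at 12.44 and 12.37 in knockdown libraries and 12.54 in both control libraries. The difference was -0.14 ± 0.04 (SE; limma, adjusted p = 0.000296).

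In the tail 3 genes rose and 1 fell of 7 (57.1% called, against 44.4% of all genes). MED27 was at 12.24 and 12.30 in knockdown libraries and 12.10 and 12.08 in control libraries (difference 0.18 ± 0.04, SE; limma, adjusted p = 5.39e-06). It was 1.26-fold higher in the authors' deposited table, the second largest rise in the complex. MED24 was at 13.31 and 13.32 in knockdown libraries and 13.20 and 13.23 in control libraries (0.11 ± 0.03, SE; adjusted p = 0.00472).

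MED25, a docking site for activation domains, was at 11.57 and 11.52 in knockdown libraries and 11.42 and 11.47 in control libraries (0.10 ± 0.04, SE; limma, adjusted p = 0.0307). MED23, which receives ELK1 after MAP kinase signalling, was the tail gene that fell. It was at 13.03 and 12.99 in knockdown libraries and 13.14 and 13.12 in control libraries (-0.11 ± 0.03, SE; adjusted p = 0.00256). MED16 (0.07), MED29 (0.00) and MED15 (-0.00), the SREBP-binding subunit, were not called, with 95% intervals between -0.07 and 0.14.

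**Figure D3:**
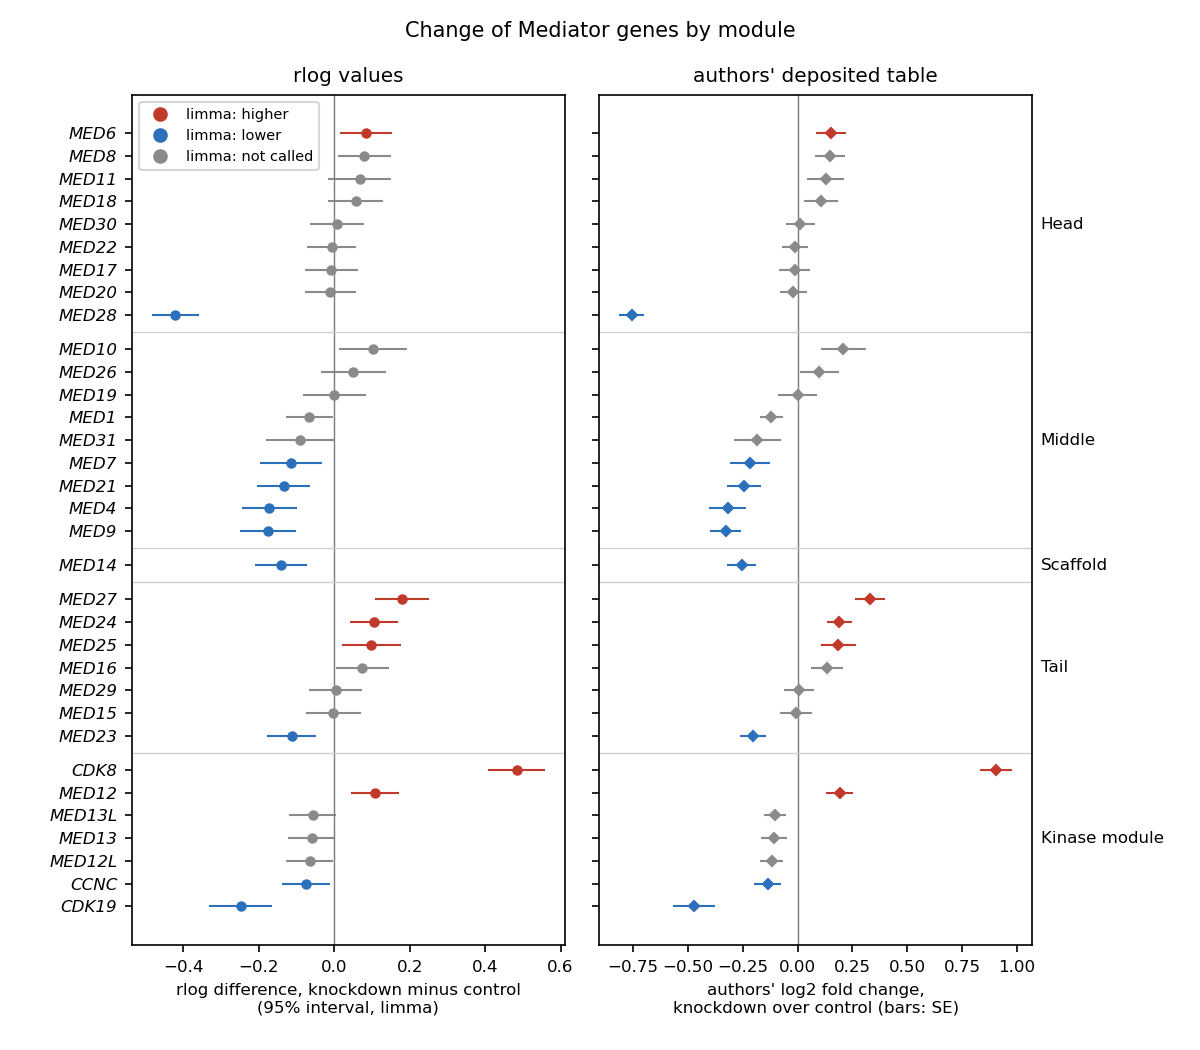
The left panel gives the rlog difference of each Mediator gene, knockdown minus control, with its 95% interval from limma, and the right panel the log2 fold change of the authors' deposited table with its standard error; colours show the limma call and rows are ordered by module. The 4 middle genes called on deposited values lie left of 0, MED10 lies right of 0 without a call, and CDK8 reaches 0.48 on the rlog scale and 0.91 in the authors' deposited table.

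Not all calls were equally firm. Those of CDK8, MED28, CDK19, MED9 and MED27 held when any 1 of the 4 libraries was left out. Each of the other 10 lost its call in at least 1 of those fits. Over all genes, calls in both directions were also fewer in each of those fits, and fewest without ARIEL knockdown replicate 2. The share of all genes that kept a call in every such fit was not computed. When the spread was estimated from each gene alone (2 residual degrees of freedom), limma called 0 members and 0 of all genes, with 9 members and 4561 genes at an unadjusted p under 0.05.

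The direction of a Mediator gene also moved with the base composition of its transcript. Over all 12719 tested genes with a GENCODE 29 transcript, the median difference was -0.08 in the lowest decile of GC content and 0.08 in the highest (Spearman's rho 0.41 across genes, which are not independent replicates). Across the 33 members rho was 0.57 and Pearson's r 0.38, over genes that share the same 4 libraries. Members that rose had a median GC content of 53.5%, those that fell 41.2%, and those not called 48.3%. The tail, with most rises, had a median of 56.7%, and the kinase module 42.8%, the middle 46.1% and the head 47.3%.

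Each library's trend with GC content and transcript length was therefore removed and the fit repeated. Of the 15 called members 11 were called again in the same direction, and none in the other. CDK8 then differed by 0.51, MED28 by -0.37, MED9 by -0.22, CDK19 by -0.19 and MED27 by 0.14. Among the other kept calls, those of MED14, MED21 and MED4 were smaller by over 1.5 times. They differed by -0.07, -0.07 and -0.10, against -0.14, -0.13 and -0.17 on deposited values. MED24 differed by 0.08 and MED12 by 0.10, each against 0.11 on deposited values. MED6 grew from 0.08 to 0.12. MED25, the member with the highest GC content (65.4%), differed by only 0.01, and MED7 (-0.07), MED23 (-0.05) and CCNC (-0.02) also lost their calls. MED8 (0.07) and MED10 (0.09) were then called higher and MED15 (-0.06) lower, so that 7 members rose and 7 fell, 42.4% against 52.5% of all genes in that fit. The median of the tail was then 0.00, and that of the middle module -0.07.

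**Figure D4:**
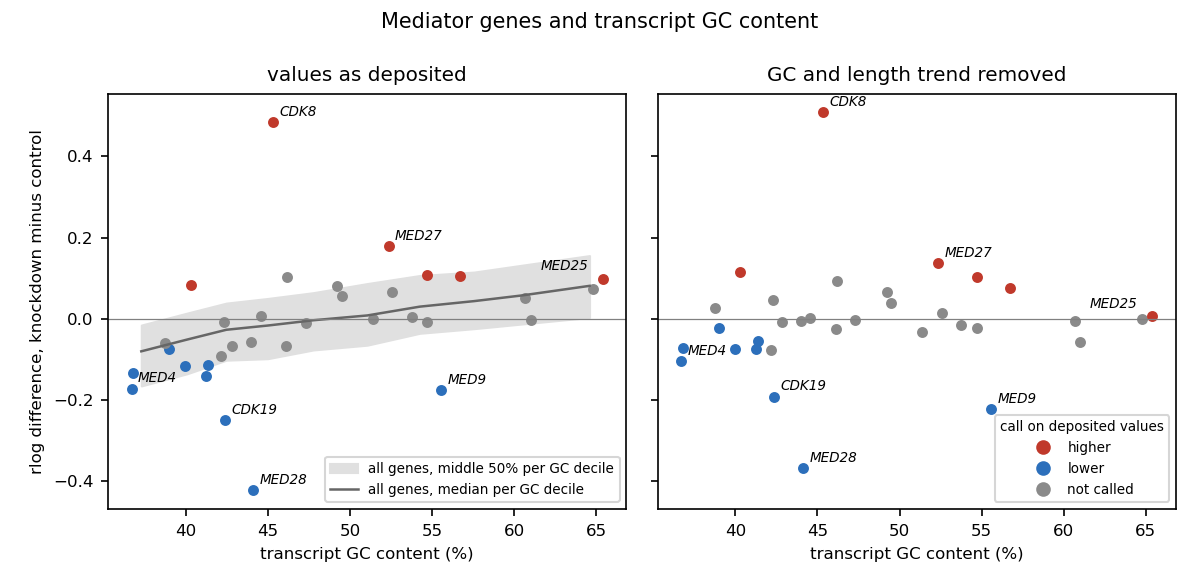
The rlog difference of each Mediator gene, knockdown minus control, is plotted against transcript GC content (%), on the values as deposited (left, with the median and middle 50% of all genes per decile of GC content) and after removal of each library's trend with GC content and length (right); colours show the call on the deposited values. CDK8, MED28, CDK19 and MED9 keep their distance from 0 on the right, while MED25 comes to lie at 0.

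Levels of the subunits differed far more between genes than between groups. With the rlog level divided by transcript length (rlog minus log2 of the length in kilobases, longest basic coding transcript in GENCODE 29), CCNC was the highest, at 12.13 in knockdown and 12.21 in control libraries. CDK19 was the lowest at 8.17 and 8.42. CDK8 stood at 10.33 in knockdown and 9.85 in control libraries, above CDK19 in every library.

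In the same order MED30 (12.03 in both groups), MED21 (11.51 and 11.64) and MED27 (11.75 and 11.57) followed CCNC in control libraries, and MED27 passed MED21 in knockdown libraries. MED14 (9.41 and 9.55), MED31 (9.40 and 9.49) and MED26 (9.03 and 8.98) preceded CDK19 at the low end. Of the 32 neighbouring pairs in the control order, 7 overlapped between control libraries and do not differ beyond that spread, among them MED12 and MED18, MED22 and MED4, and MED13 and MED28. The order rests on the transcript chosen for each gene: that of MED28 has 10868 bases, most of them 3′ UTR.

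MED12L, per length, was at 10.50 in knockdown and 10.57 in control libraries, below MED12 (11.20 and 11.09) and close to MED13 (10.63 and 10.69). The gene IGSF10, which shares 28.8% of the MED12L exon bases on the opposite strand, was listed at 0 in every library.

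The machinery that Mediator works with was described through 3 lists. Of 31 general transcription factor and TFIID genes, 8 rose and 3 fell (35.5% called, median 0.02, against 44.4% and 0.00 over all genes). With each library's GC and length trend removed, 13 rose and 4 fell, in a fit that called 52.5% of all genes. The falls were larger than the rises. TAF8, a TFIID subunit, was at 13.08 and 13.11 in knockdown and 13.53 and 13.50 in control libraries (-0.42 ± 0.03, SE), with GTF2A1 of TFIIA at -0.33 ± 0.03 and GTF2E1 of TFIIE at -0.26 ± 0.04. Its partner in TFIIE, GTF2E2, rose by 0.18 ± 0.03, as did the TFIIH helicase gene ERCC2 (0.17 ± 0.04) and GTF2F1 of TFIIF (0.14 ± 0.03).

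Among 21 genes of elongation kinases and the super elongation complex, 4 rose and 6 fell (47.6% called, median 0.00). With the trend removed 8 rose and 6 fell (52.5% of all genes called in that fit), so the balance of the calls depends on that step. MLLT1 (0.16 ± 0.04, SE), the 7SK capping enzyme gene MEPCE (0.14 ± 0.03) and SUPT5H (0.13 ± 0.03) rose. EAF2 (-0.23 ± 0.05) and CCNT1, which encodes cyclin T1 (-0.13 ± 0.03), were among those that fell.

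Of 14 tested genes for factors that bind Mediator or act beside it, 4 rose and 4 fell (57.1% called, median 0.00). With the trend removed 3 rose and 5 fell, again in the fit that called 52.5% of all genes. NCOA3, a coactivator of nuclear receptors, was at 12.19 and 12.17 in knockdown and 12.67 and 12.65 in control libraries (-0.47 ± 0.04, SE). Its relative NCOA2 (-0.24 ± 0.04) and the thyroid hormone receptor gene THRA (-0.29 ± 0.04) fell with it. The retinoic acid receptor gene RARA (0.27 ± 0.05), ESRRA (0.21 ± 0.04) and SREBF1 (0.10 ± 0.03) rose. All genes named in these lists were called by limma at an adjusted p of 0.00358 or less, and their groups did not overlap.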

How the data were processed

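Build hg19 and the tools HTSeq 0.6.1, STAR 2.5.2a and DESeq2 1.12.4 are listed, with no roles, in the submitters' processing notes. Per the file headers, the authors deposited for each gene an rlog value (log2 scale) per library, and a log2 fold change with its SE, a test score, a p-value and an adjusted p. No source used here states the size factors, the annotation, the strand setting or the use of the spike-in.

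limma 3.58.1 (R 4.3.3; trend on level) was run on the rlog values of all 4 libraries, with no pseudocount, over the 14601 genes whose mean rlog reached log2 of 10, and adjusted by Benjamini-Hochberg. The prior degrees of freedom were infinite, so genes of a level share 1 spread. The code was tested on simulated data. Members, modules and lists were chosen with earlier results of these data known. All members are named; from each list up to 3 called genes a direction with the smallest adjusted p are named, and some items are not reported here. The transcript trend was removed by splines (5 degrees of freedom). GENCODE 29 (GRCh38) matched all 33 members by gene ID. Library depth is unknown, so no counting error is given.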

Additional observations from a re-analysis of the deposited data

How the results depend on the processing

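With each gene's own variance 0 members were called (adjusted p 0.0829 to 0.322 for the 15), and 0 genes rose or fell over all genes. Leaving out 1 library at a time gave 2 to 6 members higher and 4 to 8 lower, and 2004 to 3061 genes higher and 2221 to 3127 lower; the lowest counts were those without ARIEL knockdown replicate 2. The log2 ratio of CDK8 to CDK19 changed by 0.65 to 0.81, that of MED12 to MED12L by 0.13 to 0.21 and that of MED13 to MED13L by -0.04 to 0.03. With the trend with GC content and length removed, the change of MED12 to MED12L was 0.11. The cause of these shifts was not tested. Of the single members, no called value changed sign in any alternative. The replicate numbers are shared by the groups, but nothing states that they pair the libraries (correlation of replicate deviations between groups 0.20). With a replicate block 9 members rose and 13 fell (3722 and 3704 over all genes), and with the block and the trend removed 7 and 7. No other filter, prior or scaling moved a count of members by more than 1.5 times. MED6 also lost its call with no filter, without the variance trend and with quantile normalization. Fits that leave out a library have an arm with 1 sample, assumed to vary like the others. Another pseudocount was not run, since the values are already on a log2 scale. Depth is unknown, and the median SE of a difference over all genes was 0.04.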

Other observations

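Members on the same chromosome differed in direction in some cases. On chromosome 6, CDK19, MED23 and CCNC fell and MED20 was not called. Of all 769 tested genes there 177 fell and 43.4% were called, with a median difference of -0.00. Chromosome 13 holds both CDK8, which rose, and MED4, which fell (44.0% of all tested genes there called). The X chromosome holds both MED12, which rose, and MED14, which fell (42.9% of all tested genes there called). Of the 6 members on chromosome 17, MED24 rose, MED9 fell and the others were not called. There 43.9% of all tested genes were called, with a median of 0.02.

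RefSeq promoters (GRCh38.p14, a window around each start) were at hand for 25 of the 33 members, as 30 promoters. Searched on both strands, the ETS core CCGGAAG was in 8 of the 30 (26.7%), against 16.3% of 14190 promoters of tested genes. The E-box CAGNTG was in 7 of the 30 (23.3%), against 44.8%. The E-box CACGTG was in the CDK8 and MED13L promoters only (6.67%, against 9.32%), and CCAAT in 36.7%, against 34.7%. These are counts of letters, not of bound sites, and the differences in share were not tested.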
